A study of Homo sapiens with 26 samples.

Results

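The nuclear genes for subunits of the oxidative phosphorylation complexes were followed in 26 RNA sequencing libraries of LoVo cells, a human colorectal cancer line. They were found by symbol: NDUFA, NDUFB, NDUFC, NDUFS and NDUFV with a number and NDUFAB1, the UQCR genes and CYC1, SDHA to SDHD, the COX4 to COX8 genes, and the ATP5F1, ATP5M and ATP5P genes. Assembly factors such as the NDUFAF genes were left out. The rule took 90 of 18165 genes listed in the first deposited table and 87 of 17734 in the second. A gene was kept where 2 or more libraries read FPKM 1 or higher, FPKM being fragments mapped to a gene relative to its length and to the library's total. This left 83 subunit genes of 12607 genes tested in the first table, and the same 83 of 12463 in the second. They comprise 38 genes of complex I, 4 of complex II, 10 of complex III, 13 of complex IV and 18 of complex V.

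The study compared 3 lines: wild-type LoVo and lines in which the PIK3CA mutations E545K and H1047R had been introduced by lentivirus. The product of PIK3CA is the catalytic part of PI3-kinase alpha, which makes a lipid signal downstream of growth factor receptors. In the first table each genotype was in DMSO, in 0.5 µM palbociclib, an inhibitor of CDK4 and CDK6 given to induce senescence, or in conditioned medium of senescent cells. In the second table both mutant lines received 0.5 µM palbociclib without or together with erlotinib at 4 µM, which inhibits the EGF receptor, and wild-type cells were not part of it. Each of the 13 groups had 2 libraries. The culture medium stated for all of them was DMEM supplemented with 10% serum (fetal bovine), although the conditioned-medium groups received medium of senescent cells. Conditioned medium was compared with DMSO, and no group in medium conditioned by non-senescent cells was among the 13. Palbociclib in the first table was given for 72 hours and the combination for 48 hours, while the sources used here do not give the duration for single-drug cultures of the second table or for conditioned medium, nor the cells that conditioned the medium. Each mutant line is 1 clone where the series names it, for the palbociclib experiment, and whether the other libraries came from those clones is not stated. Nothing says that the libraries of a group came from separate cultures, so p-values measure the spread between these libraries, which may be technical.

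Oxidative phosphorylation passes electrons from NADH and succinate to oxygen through complexes I to IV of the inner mitochondrial membrane, and complex V, the ATP synthase, uses the resulting proton gradient to make ATP. Complex I accepts electrons from NADH, complex II from succinate as part of the citrate cycle, complex III hands them to cytochrome c, and complex IV passes them to oxygen. A few core subunits of complexes I, III, IV and V are encoded in mitochondrial DNA and were not analysed here. Many nuclear subunit genes are known targets of the transcription factors NRF1, GABP (an ETS factor) and YY1.

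Because most of these genes moved together in the second table, their promoters were searched for 8-base letters of those 3 factors on both strands: GCGCATGC for NRF1, CCGGAAGT for ETS factors and AAGATGGC for YY1. Promoters were 300 bases long, from 250 bases before the start site to 50 after it, in RefSeq on GRCh38.p14. Of the 83 genes 68 matched a promoter by symbol. The NRF1 letters stood in 13 of the 68 (19.1%, against 3.05% of all 35116 promoters), the ETS letters in 10 (14.7% against 4.14%) and the YY1 letters in 11 (16.2% against 2.89%). At least 1 of the 3 stood in 28 (41.2% against 9.36%). The median GC content was 61.2% in the 68 promoters and 58.7% in all promoters. All promoters include those of genes that were not tested here, and no share over the tested genes alone is given. A match is a description and not a shown binding site.

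The promoters of 5 subunits that were lower in H1047R than in E545K cells in the second table, 1 per complex, and that of COX7A2L, which was higher, are printed to show the letters in place. The 5 were chosen among the lower genes that hold such letters, and the letters stood in 26 of the 63 lower genes with a promoter, in 2 of 3 that were not called and in neither of the 2 higher genes. NDUFB3, NDUFC1, COX7B and COX6B1, all lower, hold none, while SDHB and NDUFS4, not called, hold some. Capitals mark the letters searched for, all written 5′ to 3′ on the strand of the gene. NDUFS7, a complex I subunit that binds an iron-sulfur cluster, lies at chr19:1383657-1383956 on the plus strand, with NRF1 letters 73 bases before the start site and YY1 letters 17 after it. SDHD, a membrane anchor of complex II, lies at chr11:112086623-112086922 (plus), with overlapping NRF1 letters 110 and 108 bases and ETS letters 78 bases before the start. UQCRQ, a small complex III subunit, lies at chr5:132866392-132866691 (plus), with ETS letters 54 bases before it. COX5B of complex IV lies at chr2:97645812-97646111 (plus), with NRF1 letters 136 bases and ETS letters 37 and 5 bases before it. ATP5PF, coupling factor 6 of the ATP synthase stalk, lies at chr21:25735005-25735304 on the minus strand, with NRF1 letters 120 and YY1 letters 57 bases before it. COX7A2L, a relative of COX7A2 known for joining complexes III and IV into supercomplexes, lies at chr2:42361168-42361467 (minus), and none of the searched letters stand in this window.
NDUFS7: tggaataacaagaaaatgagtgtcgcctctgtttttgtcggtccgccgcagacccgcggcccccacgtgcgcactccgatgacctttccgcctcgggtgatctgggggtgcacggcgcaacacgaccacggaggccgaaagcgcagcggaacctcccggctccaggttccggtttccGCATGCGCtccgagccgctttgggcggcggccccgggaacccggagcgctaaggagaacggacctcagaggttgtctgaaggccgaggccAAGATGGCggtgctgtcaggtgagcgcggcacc
SDHD: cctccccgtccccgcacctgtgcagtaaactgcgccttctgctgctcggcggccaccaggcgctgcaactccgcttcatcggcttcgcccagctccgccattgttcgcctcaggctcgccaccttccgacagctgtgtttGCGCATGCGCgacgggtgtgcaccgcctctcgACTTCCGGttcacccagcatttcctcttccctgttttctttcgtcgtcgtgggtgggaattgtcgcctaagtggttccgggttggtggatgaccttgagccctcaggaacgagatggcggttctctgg
UQCRQ: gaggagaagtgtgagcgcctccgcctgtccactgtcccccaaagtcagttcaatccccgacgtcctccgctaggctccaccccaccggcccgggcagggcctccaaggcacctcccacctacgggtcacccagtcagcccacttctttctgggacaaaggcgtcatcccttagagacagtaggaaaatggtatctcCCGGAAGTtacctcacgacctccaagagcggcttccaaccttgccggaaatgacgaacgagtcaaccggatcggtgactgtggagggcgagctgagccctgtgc
COX5B: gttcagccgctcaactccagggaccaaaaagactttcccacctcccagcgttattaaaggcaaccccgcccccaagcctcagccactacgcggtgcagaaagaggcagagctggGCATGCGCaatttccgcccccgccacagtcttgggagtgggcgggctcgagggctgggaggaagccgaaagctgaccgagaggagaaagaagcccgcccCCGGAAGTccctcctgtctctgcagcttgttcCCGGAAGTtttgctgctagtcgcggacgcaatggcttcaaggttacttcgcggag
ATP5PF: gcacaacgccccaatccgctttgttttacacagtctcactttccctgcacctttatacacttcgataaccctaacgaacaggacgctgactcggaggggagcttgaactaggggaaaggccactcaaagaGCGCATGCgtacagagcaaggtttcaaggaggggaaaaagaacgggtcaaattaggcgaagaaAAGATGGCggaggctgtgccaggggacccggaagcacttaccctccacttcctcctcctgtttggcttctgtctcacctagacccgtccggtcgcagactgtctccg
COX7A2L: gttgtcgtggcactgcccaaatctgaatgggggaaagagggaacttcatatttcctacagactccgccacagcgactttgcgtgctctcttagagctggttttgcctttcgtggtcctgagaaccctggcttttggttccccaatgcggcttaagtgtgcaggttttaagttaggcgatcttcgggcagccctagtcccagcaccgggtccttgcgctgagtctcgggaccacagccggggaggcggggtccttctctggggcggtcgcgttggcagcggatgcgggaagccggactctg

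FPKM sums ran from 441643 to 524290 per library and from 11453 to 12157 genes reached FPKM 1, while read depth is unknown because no counts were used here. Of 10 epithelial markers 8 passed the filter, led by KRT8 and KRT18, with KRT20 and CDX1 below it. Their summed FPKM was 7030 to 16731 per library. The summed FPKM of 16 markers of leukocytes, fibroblasts, endothelium and muscle was 39.2 to 72.0, most of it CD68. Of the fibroblast markers COL3A1 had group means of 0.27 to 18.5 FPKM and DCN was at or near 0, as was the endothelial marker CDH5. Replicate 2 of H1047R in palbociclib in the first table stood apart: its FPKM sum was the highest of all, and the subunit genes held 2.49% of it against 2.20% in replicate 1. The counts of calls, the medians over all subunit genes and the named genes of H1047R in palbociclib in that table are also given without it. The scaling between libraries is not stated in the sources used here. The median log2 change of all genes, on the log2(FPKM + 1) scale used throughout, was 0.25 in E545K and 0.26 in H1047R relative to wild-type cells in DMSO, 0.14 for palbociclib and 0.29 for conditioned medium in wild type. Changes are therefore also given as relative log2 changes, the log2 change minus that median, while the limma test itself is of a change from 0.

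In these cells ATP5F1B, the catalytic beta subunit of the ATP synthase, was the most abundant of the subunit transcripts per length, with a mean of 822 FPKM over the 26 libraries (513.7 to 1102). COX6A1 followed at 614, COX7C at 522, UQCRH, the hinge protein of complex III, at 442, and COX4I1 at 438. Median levels per gene were 59.3 FPKM in complex I, 89.7 in complex II, 63.1 in complex III, 214 in complex IV and 132 in complex V. Apart from COX6B2 at a low level, the ubiquitous isoforms of complex IV were the ones present. COX4I2, COX6A2, COX7B2, COX7A1 and COX8C, forms known from lung, heart and muscle or testis, did not pass the filter: their highest listed value was 0.59 FPKM, and COX4I2, COX6A2 and COX7B2 have values in the first table only. NDUFA4L2, a hypoxia-induced relative of the complex IV subunit NDUFA4, reached at most 0.61 and ATP5MGL at most 1.31, in 1 library. Just inside the filter stood UQCRHL at 0 to 2.39 and ATP5MF-PTCD1 at 0 to 3.66. COX6B2, the testis form of COX6B, was low at 2.26 to 6.37 but read above FPKM 1 in every library. UQCRHL is nearly a copy of UQCRH, and ATP5MF-PTCD1 and NDUFC2-KCTD14 are readthrough transcripts over ATP5MF and NDUFC2, so how fragments were split between each pair is uncertain.

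Between the 13 groups the range of group means, on the log2 scale and set across tables that may have been scaled apart, was widest in complex I for NDUFB3 (1.51) and narrowest for NDUFS4 (0.29). In complex II it ran from 1.07 for SDHB to 0.88 for SDHA, in complex III from 1.43 for UQCR10 to 0.43 for UQCRB, in complex IV from 1.85 for COX8A to 0.62 for COX5A and in complex V from 1.87 for ATP5MF-PTCD1 to 0.60 for ATP5MC2. Within the first set of libraries, 26 of the 83 genes were lowest in wild type in DMSO and 23 highest in H1047R in palbociclib. The count of 23 includes H1047R palbociclib replicate 2, which stood apart, and was not repeated without that library. In the second set 76 of 83 were highest in E545K in palbociclib and 62 lowest in H1047R in palbociclib with erlotinib. Among the exceptions, COX7A2L and COX6B2 were lowest where most others were highest. The highest and lowest groups were not counted over all genes tested, so none of these counts can be set against such a share.

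**Figure D1:**
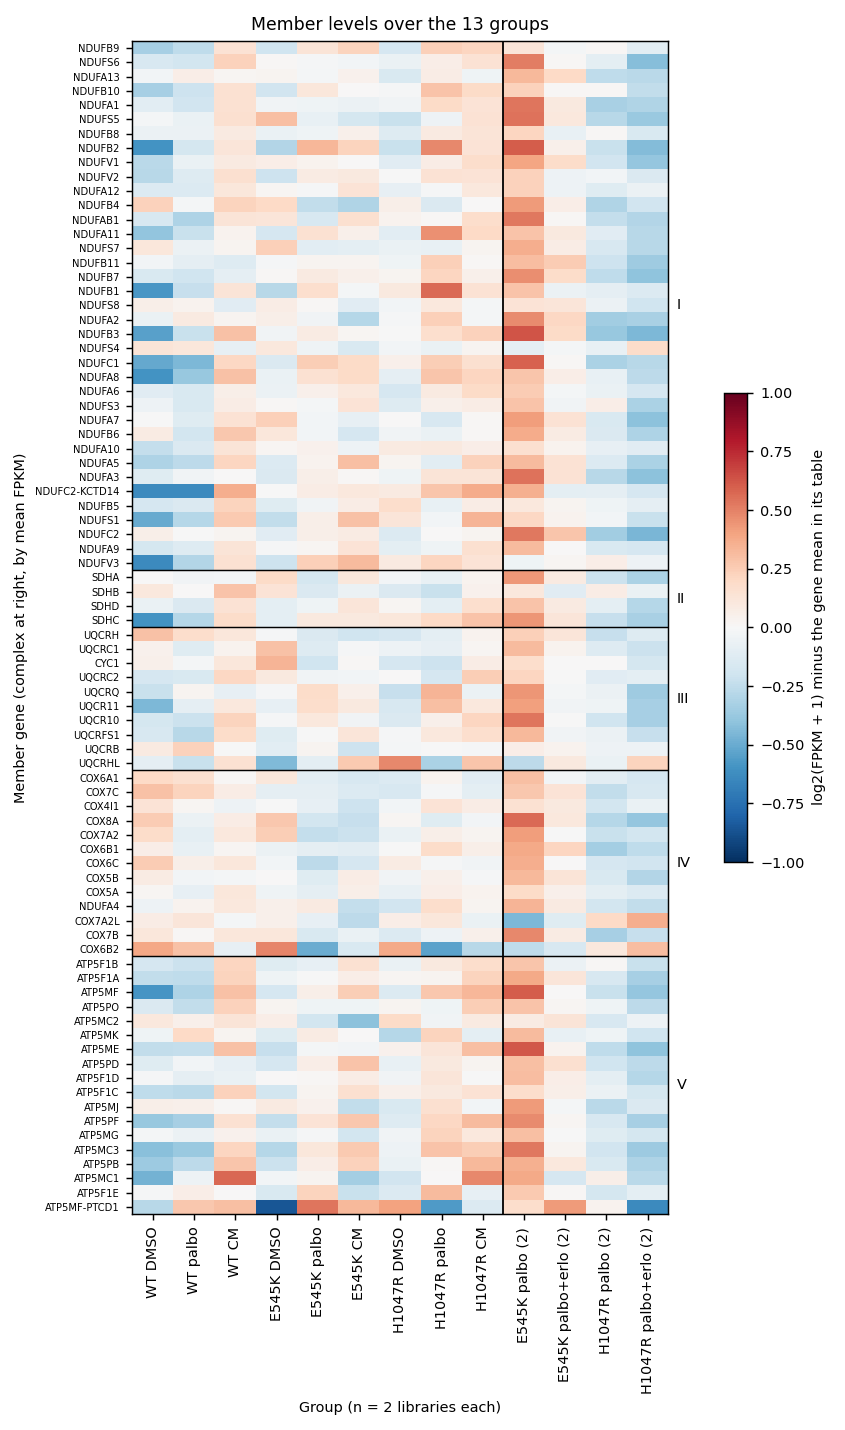
Level of 82 of the 83 subunit genes (rows, grouped by complex I to V and ordered by mean FPKM) in the 13 groups (columns), as the log2(FPKM + 1) of the group mean of 2 libraries minus the gene's mean over the groups of its table. The column of E545K in palbociclib in the second table, marked (2) like its neighbours, holds the highest mean of that table for 75 of these 82 genes, while COX7A2L is at its lowest there. The share over all genes tested was not counted. CM is conditioned medium, palbo palbociclib and erlo erlotinib.

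As a share of the library's FPKM sum, the 83 genes together held 2.14% to 2.61% in the first table. Wild type read 2.16% in both DMSO libraries, 2.14% and 2.17% in palbociclib, the lowest groups of that table, and 2.61% and 2.52% in conditioned medium. In the second table the share was 2.14% and 2.18% in E545K in palbociclib and 1.76% and 1.75% with erlotinib. In H1047R it was 1.61% and 1.56% in palbociclib and 1.47% and 1.45% with erlotinib. Each of the 3 lower groups lay below every library of the first table. Cytosolic ribosomal protein genes held 20.6% and 20.9% of the sum in E545K in palbociclib and 23.3% to 27.2% in the other libraries of the second table, so their share was higher where that of the subunits was lower; their part in the result was not tested. Libraries are bulk RNA, in which fewer cells with a transcript and less RNA per cell cannot be told apart.

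**Figure D2:**
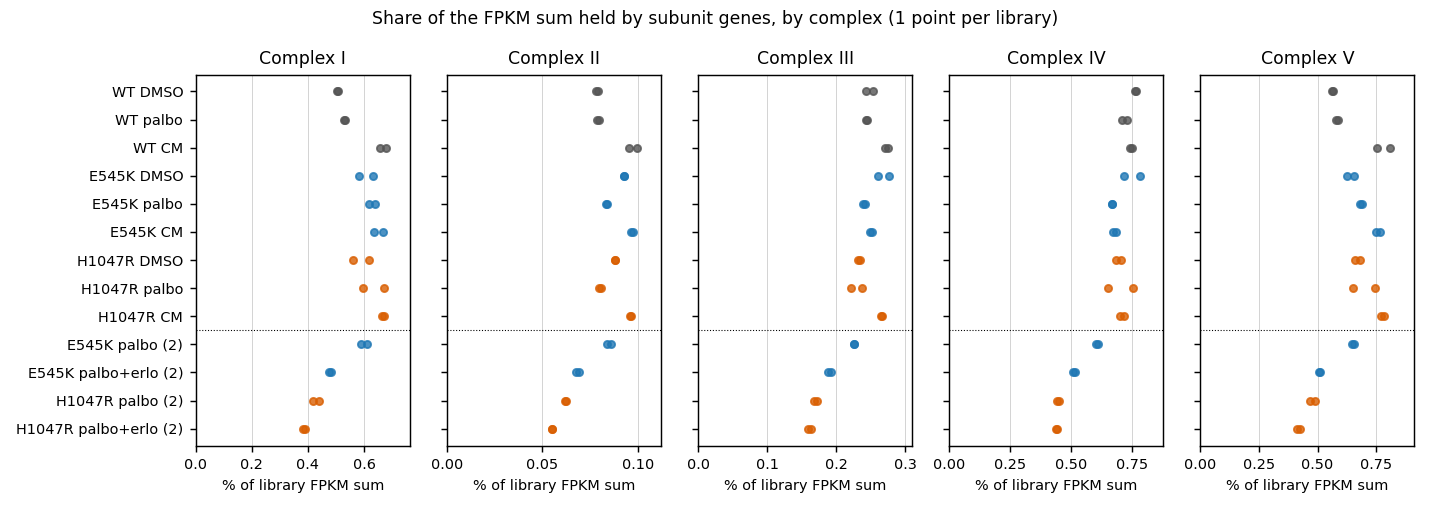
Percent of each library's FPKM sum held by the subunit genes of complexes I to V (1 panel each, axes from 0), with 1 point per library, 2 per group, coloured by genotype. Below the dotted line the 4 groups of the second table (2) fall in the same order for complexes I, II, III and V, from E545K in palbociclib down to H1047R in palbociclib with erlotinib; in complex IV both H1047R groups sit together at 0.437% to 0.449%.

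Most calls were made between the mutant lines in palbociclib in the second table. Of the 83 subunit genes 73 were lower in H1047R than in E545K and 2 were higher, where 51.6% of all genes tested were called in either direction, 30.1% lower and 21.5% higher. The median relative log2 change was -0.42. Lower were 34 of 38 genes of complex I, 3 of 4 of complex II, 8 of 10 of complex III, 11 of 13 of complex IV and 17 of 18 of complex V. COX7A2L and COX6B2 of complex IV were the 2 higher genes, and NDUFV3, NDUFS4, NDUFB9, NDUFB5, SDHB, UQCRB, UQCRHL and ATP5MF-PTCD1 were not called. Leaving out any 1 of the 4 libraries compared left 62 to 74 calls. Other markers moved beside this result: of 8 epithelial markers 2 were higher and 6 lower in H1047R, among them EPCAM, an adhesion protein of epithelia, with group means of 339.4 FPKM in E545K and 203.1 in H1047R. The summed FPKM of the 15 listed markers of other cell types was 39.6 and 46.2 in E545K and 68.0 and 54.2 in H1047R, most of it CD68. CD68 was higher in H1047R (relative log2 change 0.75, adjusted p 0.0015), while the collagen gene COL3A1, with group means of 4.07 FPKM in E545K and 1.89 in H1047R, was lower (-0.83, adjusted p 0.0144), and DCN and CDH5 were at or near 0. Their part in the result was not tested.

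In complex I, NDUFB3, an accessory subunit of the membrane arm, stood at 50.6 and 60.8 FPKM in E545K and at 28.6 and 25.7 in H1047R. Both H1047R libraries lay below both E545K libraries, and the relative log2 change was -0.96 (adjusted p of the unshifted change 0.000123). The log2 changes of subunit genes given with an SE, here and below, are unshifted, and the median over all genes was -0.04 in this comparison. NDUFC1, another membrane arm subunit, was at 54.3 and 57.5 against 29.3 and 29.4 (-0.91, SE 0.05, adjusted p 4.07e-06), and NDUFC2 at 15.6 and 17.4 against 8.30 and 8.86 (-0.87, SE 0.07). NDUFS7, whose promoter is printed above, fell less, from 57.7 and 54.5 to 40.0 and 37.8 (-0.52, SE 0.06). Among the members without a call was NDUFS4, a subunit of the NADH-oxidizing arm, whose values overlapped at 44.5 and 49.0 in E545K and 49.1 and 45.4 in H1047R.

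Complex II was split. SDHA, the flavoprotein that oxidizes succinate, was at 146.5 and 147.4 FPKM in E545K and 95.8 and 91.4 in H1047R (-0.65, SE 0.05, adjusted p 1.62e-05), and the membrane anchors SDHC and SDHD were lower by -0.67 (SE 0.07) and -0.38 (SE 0.05). SDHB, the iron-sulfur subunit, was not called: its libraries read 71.0 and 73.6 against 73.4 and 67.8 and overlapped. In complex III, UQCR10 read 38.4 and 38.2 against 22.4 and 22.7 (-0.74, SE 0.05, adjusted p 1.04e-05), UQCRQ 67.1 and 68.4 against 48.5 and 46.7 (-0.50, SE 0.05) and the abundant UQCRH 417.8 and 429.9 against 322.4 and 290.2 (-0.47, SE 0.06). No library of H1047R reached the E545K level for these 3 genes.

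In complex IV the catalytic core is mitochondrially encoded, and the nuclear genes encode the subunits around it. COX8A read 183.9 and 197.4 FPKM in E545K and 108.9 and 101.1 in H1047R (-0.85, SE 0.07, adjusted p 2.31e-05). COX7B was lower by -0.81 (SE 0.06), COX6B1 by -0.72 (SE 0.06), COX7A2 by -0.64 (SE 0.10), NDUFA4 by -0.52 (SE 0.05) and COX7C by -0.51 (SE 0.04). COX5B (-0.48, SE 0.08), COX6A1 (-0.41, SE 0.05), COX4I1 (-0.33, SE 0.05) and COX5A (-0.29, SE 0.04) differed least among those named. COX7A2L ran the other way, at 75.9 and 75.2 in E545K and 119.7 and 117.9 in H1047R (0.65, SE 0.05, adjusted p 3.25e-05). COX7A2, at 191.6 and 217.3 against 144.1 and 117.9, and COX7A2L thus differed in opposite directions, and the groups overlapped in neither gene. COX6B2 was low in both, at 3.36 and 2.91 against 4.22 and 4.38 (0.36, SE 0.11, adjusted p 0.0207), and its call was lost without E545K palbociclib replicate 2 (adjusted p 0.134, range over its alternatives 0.0128 to 0.134).

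In complex V, ATP5ME, a membrane subunit of the peripheral region, read 147.1 and 156.7 FPKM in E545K and 90.6 and 74.0 in H1047R (-0.88, SE 0.12, adjusted p 0.000411). ATP5MF read 296.0 and 282.4 against 170.2 and 155.9 (-0.82, SE 0.06). The catalytic subunits differed less: ATP5F1A by -0.54 (SE 0.04) and ATP5F1B, at 720.8 and 735.2 against 627.2 and 585.1, by -0.26 (SE 0.05). The genes ATP5MC1, ATP5MC2 and ATP5MC3, all encode the same mature c subunit of the rotor ring. ATP5MC3 was at 88.3 and 85.7 against 53.9 and 51.0 (-0.72, SE 0.05). ATP5MC1 (-0.33, SE 0.10, adjusted p 0.025) and ATP5MC2 (-0.25, SE 0.08, adjusted p 0.0252) passed too, but both calls were lost without E545K palbociclib replicate 1 (0.0959 and 0.0688) or replicate 2 (0.0959 and 0.124), and that of ATP5MC2 also without H1047R palbociclib replicate 2 (0.0628). The change of ATP5MC1 was -0.51 without H1047R palbociclib replicate 1 and -0.15 without replicate 2.

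The same labels, H1047R against E545K in palbociclib, also exist in the first table, and this contrast was added after seeing the data. There 1 gene was higher and 2 were lower of 83, where 16.3% of all genes were called, 4.75% higher and 11.5% lower, and the median relative log2 change was 0.17, which turned to -0.01 without H1047R palbociclib replicate 2. NDUFB3 read 67.9 and 62.8 FPKM in E545K and 64.0 and 75.0 in H1047R, and NDUFC1 63.0 and 56.6 against 51.0 and 68.6, so both overlapped. COX7A2L read 87.2 and 84.4 against 86.9 and 110.1 (0.19, SE 0.10, adjusted p 0.204). Among the calls were NDUFB1, higher by 0.41 (SE 0.11, adjusted p 0.0208), and ATP5MF-PTCD1 (-1.14, SE 0.27, adjusted p 0.0112). Without H1047R palbociclib replicate 1 the count rose to 37 higher and 2 lower and COX7A2L passed (0.36, adjusted p 0.00675), and without replicate 2 it was 0 higher and 1 lower, with NDUFB1 at 0.28 (adjusted p 0.16), ATP5MF-PTCD1 at -0.78 (0.114) and COX7A2L at 0.02 (0.938). Without E545K palbociclib replicate 1 it was 1 higher and none lower, and without replicate 2 it was 0. The tables were fitted apart, and the difference between them was not tested.

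**Figure D3:**
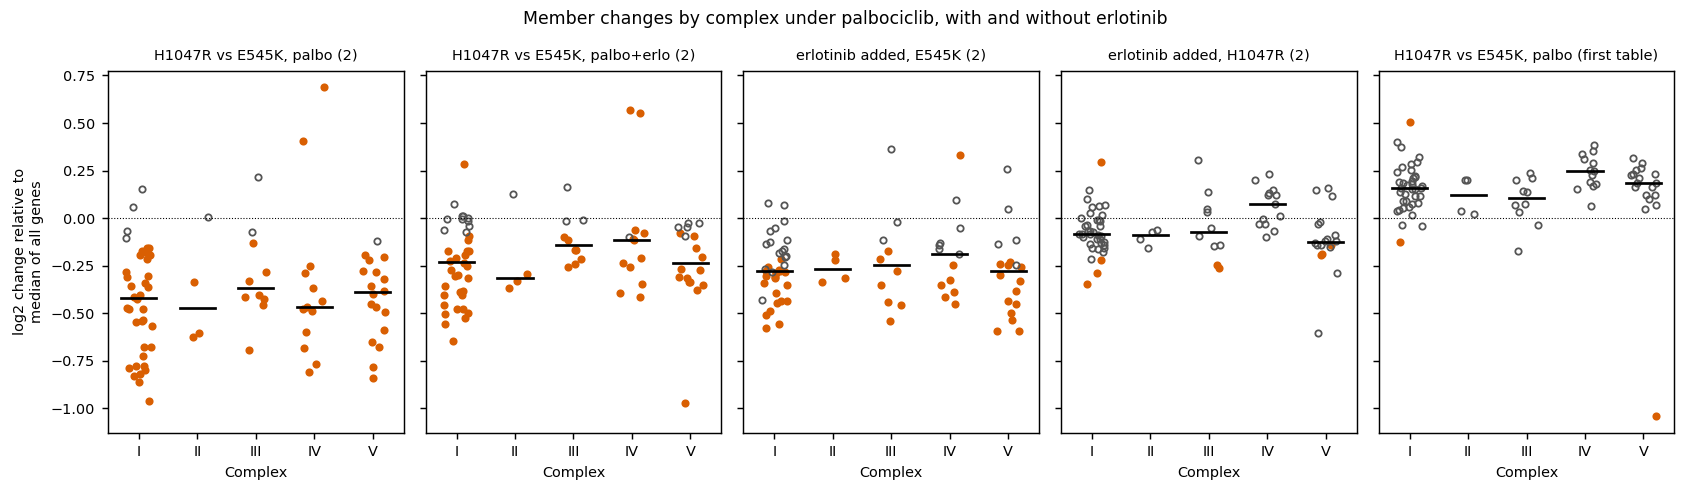
Relative log2 change of each subunit gene (points) in 5 comparisons (panels), by complex, with the median per complex as a bar; filled points passed the limma test at an adjusted p below 0.05, and 0 is the median change of all genes tested. For H1047R against E545K in palbociclib 77 of 83 genes lie below 0 in the second table, with COX7A2L highest at a relative change of 0.69, and 77 of 83 lie above 0 in the first table, where the median turns to -0.01 without H1047R palbociclib replicate 2.

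With erlotinib in both lines, a contrast added after seeing the data, 60 genes were lower in H1047R and 3 higher, where 53% of all genes were called, 33.1% lower and 19.9% higher. The median relative log2 change was -0.21. NDUFB3 read 37.8 and 43.7 FPKM in E545K and 27.3 and 24.4 in H1047R (-0.64, SE 0.11, adjusted p 0.00138) and NDUFC2 13.2 and 14.3 against 7.90 and 7.87 (-0.73, SE 0.07). COX7A2L was again higher, at 99.6 and 90.4 against 134.0 and 132.9 (0.49, SE 0.05, adjusted p 0.000144). The other higher genes were COX6B2 (0.47, SE 0.11) and NDUFS4 (0.20, SE 0.06). The call of COX6B2 was lost without replicate 2 of either group (adjusted p 0.054 and 0.0541) and that of NDUFS4 without any 1 of the 4 libraries (0.0659 to 0.152).

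Most subunit genes were lower in E545K cells in palbociclib with erlotinib than in palbociclib alone. The duration of the cultures in palbociclib alone is not given in the sources used here. An effect of erlotinib therefore cannot be told apart from one of duration, and the part of duration in the result was not tested. Of 83 genes 51 fell and 1 rose, where 16.2% of all genes were called, 9.11% lower and 7.1% higher, and the median relative log2 change was -0.27. Lower were 21 genes of complex I, all 4 of complex II, 7 of complex III, 6 of complex IV and 13 of complex V. NDUFC1 fell from 54.3 and 57.5 FPKM to 37.7 and 36.4 (-0.58, SE 0.05, adjusted p 0.000552) and ATP5MF from 296.0 and 282.4 to 192.2 and 189.4 (-0.60, SE 0.06, adjusted p 0.000765). SDHA fell from 146.5 and 147.4 to 114.5 and 117.1 (-0.34, SE 0.05), UQCR10 from 38.4 and 38.2 to 26.3 and 25.6 (-0.54, SE 0.05) and COX8A from 183.9 and 197.4 to 143.4 and 133.6 (-0.46, SE 0.07). The most abundant member, ATP5F1B, fell from 720.8 and 735.2 to 581.7 and 571.8 (-0.34, SE 0.05). COX7A2L was the gene that rose, from 75.9 and 75.2 to 99.6 and 90.4 (0.33, SE 0.05, adjusted p 0.00614), a call lost without E545K palbociclib replicate 2 (0.056) or combination replicate 1 (0.0596). The number of calls fell to 28, 19, 21 and 19 without E545K palbociclib replicate 1 or 2 or combination replicate 1 or 2, with 27, 19, 21 and 18 of them lower. Of 8 epithelial markers 1 was higher and 4 were lower with erlotinib in E545K, and COL3A1 was lower (group means 4.07 and 0.39 FPKM, relative log2 change -1.86, adjusted p 0.00212). Their part in the result was not tested.

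In H1047R cells, which were lower in palbociclib alone, 8 genes were lower and 1 higher with erlotinib, with the same limit on duration. Of all genes 9.36% were called, 6.35% lower and 3.01% higher. The median relative log2 change was -0.07, and in complex IV it was 0.08. NDUFS6, an accessory subunit of complex I, read 117.2 and 107.4 FPKM before and 90.4 and 88.7 with erlotinib (-0.32, SE 0.05, adjusted p 0.00924), UQCRQ 48.5 and 46.7 against 38.8 and 38.5 (-0.29, SE 0.05, adjusted p 0.00884) and NDUFS3 34.9 and 37.3 against 26.3 and 28.8 (-0.38, SE 0.08, adjusted p 0.0243). NDUFS4 was the gene that rose, from 49.1 and 45.4 to 55.5 and 57.9 (0.26, SE 0.06, adjusted p 0.0427). NDUFC1 was not called, at 29.3 and 29.4 against 30.3 and 30.0. No member was called without either of the combination libraries, while 24 were called without H1047R palbociclib replicate 1 (7 higher, 17 lower) and 21, all lower, without replicate 2.

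The difference between the 2 erlotinib responses was tested directly. In 6 genes the response, as a signed log2 change, was higher in H1047R than in E545K and in none lower, where 2.17% of all genes were called, 0.899% higher and 1.27% lower. The largest differences were those of NDUFC1 (0.62, SE 0.07, adjusted p 0.00744), COX7B (0.49, SE 0.08, adjusted p 0.025) and NDUFB4 (0.47, SE 0.09, adjusted p 0.0377). COX7B went from 34.3 and 36.7 to 27.0 and 26.4 FPKM in E545K and from 20.3 and 19.3 to 21.7 and 20.8 in H1047R. All 3 calls were lost when 1 of several libraries was left out. The count was 38 (37 higher) without H1047R palbociclib replicate 1, 14 without replicate 2, 1 without replicate 1 of either E545K group and 0 without replicate 2 of either E545K group or without either H1047R combination library. It was 2 with no filter or with a replicate block and 10 after centring.

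The first table asks what the mutations, palbociclib and conditioned medium did. In DMSO 21 subunit genes were higher and 4 lower in E545K than in wild type, where 58.8% of all genes were called, 48.4% higher and 10.4% lower. In H1047R 26 were higher and 5 lower, where 67.4% were called, 49.9% higher and 17.5% lower. Both comparisons share the wild-type libraries. The medians relative to all genes were below 0, at -0.18 and -0.21, and with libraries centred on their median the split turned to 0 higher and 21 lower in E545K and to 5 and 41 in H1047R, so the direction of the group depends on the scaling. The share of all genes called after centring is not given here. Cytosolic ribosomal protein genes held 27.1% and 27.3% of the FPKM sum in wild type in DMSO and 20.3% to 23.6% in the mutant lines, and their part in the result was not tested. By complex, with E545K first, 12 and 15 genes were higher and none lower in complex I, 2 and 1 higher and 0 and 1 lower in complex II, 4 and 1 higher and 2 and 1 lower in complex III, none higher and 2 and 3 lower in complex IV, and 3 and 9 higher and none lower in complex V. Differences between complexes were not tested.

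NDUFV3, a small subunit of the NADH-binding arm, read 6.46 and 6.74 FPKM in wild type, 9.29 and 9.23 in E545K and 10.9 and 12.2 in H1047R, and the groups did not overlap. Its log2 change was 0.72 in H1047R (SE 0.07, adjusted p 7.44e-07) and 0.43 in E545K (SE 0.07, adjusted p 0.000168, lost at 0.248 after quantile normalization and 0.106 after centring). SDHC read 47.9 and 48.7 in wild type against 64.0 and 73.7 in E545K and 81.4 and 78.3 in H1047R (0.71 in H1047R, SE 0.09, adjusted p 4.14e-06). NDUFB3 rose in E545K from 40.3 and 43.5 to 56.4 and 63.9 (0.51, SE 0.09, adjusted p 0.000335, and 0.132 after centring). On the other side stood COX7C, at 710.3 and 670.3 in wild type, 500.9 and 561.6 in E545K (-0.38, SE 0.10, adjusted p 0.00339) and 528.6 and 481.0 in H1047R (-0.45, SE 0.10, adjusted p 0.000713), and UQCRH, at 560.3 and 603.6 in wild type and 426.3 and 419.7 in H1047R (-0.46, SE 0.09, adjusted p 0.000398). The E545K count fell to 13, 16 and 13 without wild-type DMSO replicate 1 or 2 or E545K DMSO replicate 2, and the H1047R count to 19 without either wild-type library.

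Palbociclib called 8 subunit genes higher and 2 lower in wild type (34% of all genes called, 27.2% higher and 6.77% lower), 13 higher and 12 lower in E545K (52.2%, 32.9% and 19.3%) and 16 higher and 2 lower in H1047R (39.3%, 19.5% and 19.8%). Median relative log2 changes were -0.15, -0.04 and 0.16, the last turning to -0.05 without H1047R palbociclib replicate 2. NDUFB2 of complex I rose in all 3 lines, from 87.5 and 80.1 to 110.0 and 115.9 FPKM in wild type (0.43, SE 0.14, adjusted p 0.0328), from 97.0 and 110.6 to 153.6 and 167.5 in E545K (0.63, SE 0.14, adjusted p 0.00207) and from 128.9 and 90.1 to 157.4 and 199.4 in H1047R (0.71, SE 0.14, adjusted p 0.00154). The wild-type call was lost without any 1 of its 4 libraries (adjusted p 0.0695 to 0.175) and after centring (0.262). In E545K, CYC1, the cytochrome c1 of complex III, fell from 176.5 and 199.0 to 127.4 and 131.3 (-0.53, SE 0.11, adjusted p 0.00107) and COX7A2 from 304.6 and 351.4 to 231.6 and 238.0 (-0.48, SE 0.11). In H1047R, UQCRQ rose from 63.3 and 55.3 to 74.3 and 102.6 (0.55, SE 0.12, adjusted p 0.00235). Without H1047R palbociclib replicate 2 the change was 0.32 for UQCRQ (adjusted p 0.0246) and 0.54 for NDUFB2 (adjusted p 0.0188), and without H1047R DMSO replicate 2 it was 0.46 for NDUFB2 (adjusted p 0.0273). By complex, E545K had 5 genes higher and none lower in complex V and none higher and 5 lower in complex IV.

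These counts depend on single libraries and on the scaling. In wild type 2 or 3 genes were called, all higher, when 1 of the libraries was left out: 2 without DMSO replicate 1, and 3 without DMSO replicate 2 or palbociclib replicate 1 or 2. In H1047R the count was 55 (50 higher) without palbociclib replicate 1, 11 (5 higher, 6 lower) without palbociclib replicate 2 and 6 (5 higher) without DMSO replicate 2. In E545K it was 9 higher and 16 lower without DMSO replicate 1. Quantile normalization turned the H1047R split to 12 higher and 14 lower and moved the E545K count to 40, and centring turned wild type to 0 and 10 and E545K to 3 and 18.

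COX6B2 responded to palbociclib differently in both mutant lines than in wild type. It read 5.88 and 5.39 FPKM in wild type in DMSO and 5.84 and 4.62 in palbociclib. In E545K it fell from 6.37 and 5.94 to 2.94 and 2.29 (-0.99, SE 0.14, adjusted p 4.91e-05) and in H1047R from 5.15 and 6.05 to 2.78 and 2.26 (-0.91, SE 0.14, adjusted p 0.000251). The response differed from that of wild type by -0.89 in E545K (SE 0.20, adjusted p 0.00534) and by -0.81 in H1047R (SE 0.20, adjusted p 0.0138). Without H1047R palbociclib replicate 2 the H1047R change was -0.80 (adjusted p 0.00282) and the difference -0.70 (adjusted p 0.0402). The H1047R difference was lost after quantile normalization (0.0668) and without wild-type DMSO replicate 2, H1047R DMSO replicate 2 or wild-type palbociclib replicate 1 (0.0566, 0.0567 and 0.0699). It was among 4 genes called in each of the 2 tests of response, all lower in the mutant, where 25.7% of all genes were called for E545K, 14.7% lower and 10.9% higher, and 22.6% for H1047R, 17.4% lower and 5.16% higher. Those counts ran from 1 to 4 and from 0 to 41 when 1 library was left out, the highest without H1047R palbociclib replicate 1 (37 higher, 4 lower). For E545K the count was 1 without E545K DMSO replicate 2 or wild-type palbociclib replicate 2, and 2 without wild-type DMSO replicate 1 or 2, wild-type palbociclib replicate 1 or E545K palbociclib replicate 1 or 2. For H1047R it was 9 without H1047R DMSO replicate 1, 0 without replicate 2 of wild-type or H1047R DMSO, 1 and 2 without wild-type palbociclib replicate 1 or 2 and 6 without H1047R palbociclib replicate 2.

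**Figure D4:**
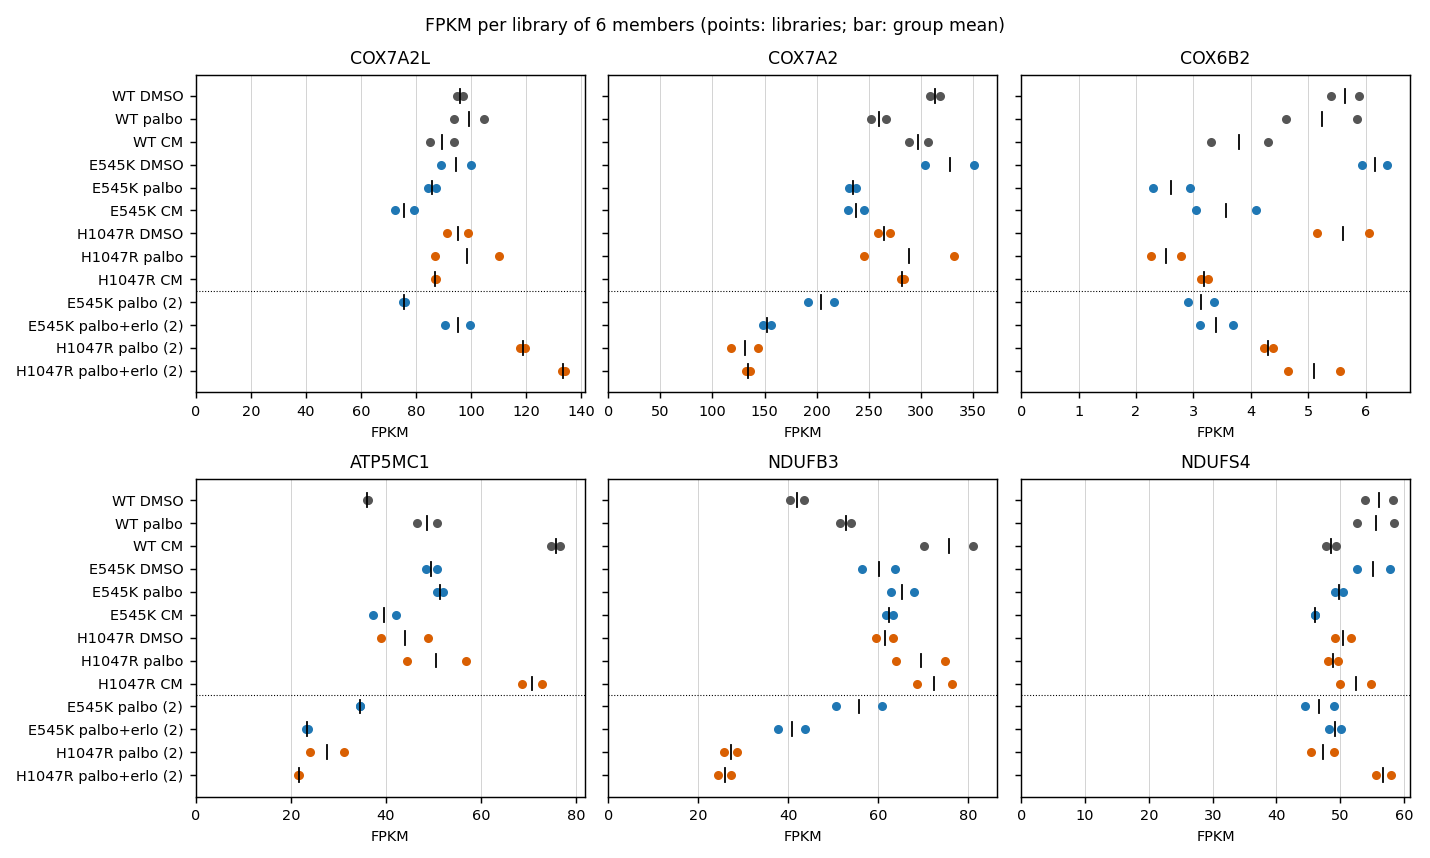
FPKM per library (points, 2 per group, with the group mean as a bar) of COX7A2L, COX7A2, COX6B2, ATP5MC1, NDUFB3 and NDUFS4 in the 13 groups, those of the second table (2) below the dotted line; axes start at 0. COX7A2L is highest in the H1047R groups of the second table at 117.9 to 134.0, COX6B2 drops to between 2.26 and 2.94 in both mutant lines in palbociclib in the first table, and NDUFS4 stays between 44.5 and 58.5 throughout.

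Conditioned medium of senescent cells called 38 subunit genes higher and 2 lower in wild type (70.5% of all genes called, 51.9% higher and 18.6% lower), 17 higher and 16 lower in E545K (57.3%, 32.4% and 24.9%) and 10 higher and 1 lower in H1047R (14.6%, 8.65% and 5.97%). Median relative log2 changes were -0.11, 0.00 and 0.16. In wild type 21 of 38 genes of complex I were higher and 1 lower, 3 of 4 of complex II, 4 of 10 of complex III and 10 of 18 of complex V were higher, and in complex IV none were higher and 1 was lower. In E545K complex IV again had none higher and 5 lower, against 8 higher and 3 lower in complex V. Cytosolic ribosomal protein genes held 27.1% and 27.3% of the FPKM sum in wild type in DMSO and 21.5% and 21.6% in the medium. COL3A1 had group means of 3.47 FPKM in DMSO and 18.5 in the medium in wild type (relative log2 change 1.83, adjusted p 8.00e-11), was lower in the medium in E545K (-0.91, adjusted p 9.66e-07) and higher in H1047R (0.53, adjusted p 0.00121). COL1A1, another fibroblast collagen, was not called in wild type (-0.13, adjusted p 0.193) or H1047R (-0.29, adjusted p 0.0909) and was lower in E545K (-0.54, adjusted p 0.00118). In wild type CD68 (-0.75, adjusted p 0.002) and the muscle marker DES (-0.80, adjusted p 0.00127) were lower, and the leukocyte marker PTPRC was higher (0.22, adjusted p 0.0422). PTPRC, COL1A1 and DES were at low levels. The part of these genes in the result was not tested.

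ATP5MC1, a gene of the rotor ring, had the largest rise of the subunit genes in wild type, from 36.1 and 36.2 FPKM to 76.7 and 74.8 (1.05, SE 0.11, adjusted p 8.32e-07). It rose in H1047R from 49.0 and 39.1 to 68.6 and 72.9 (0.68, SE 0.11, adjusted p 0.00135), but in E545K it read 48.5 and 50.7 in DMSO and 37.3 and 42.1 in the medium (-0.32, SE 0.11, adjusted p 0.0236). The E545K call was lost without DMSO replicate 1 or 2 or medium replicate 1 (0.0525, 0.112 and 0.181). Its response in E545K differed from that of wild type by -1.37 (SE 0.16, adjusted p 8.81e-06), with the same sign and call in every alternative run, and in H1047R by -0.37 (SE 0.16, adjusted p 0.0615, and 0.0111 without H1047R DMSO replicate 2). The other ring genes gave other patterns: ATP5MC3 rose in E545K from 66.9 and 75.8 to 105.2 and 104.3 (0.55, SE 0.11, adjusted p 0.000743), while ATP5MC2 read 150.8 and 180.4 in DMSO and 117.9 and 119.3 in the medium.

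NDUFA8, which carries disulfide bonds formed in the intermembrane space, rose in wild type from 29.5 and 32.3 FPKM to 62.5 and 53.8 (0.89, SE 0.13, adjusted p 2.06e-05). NDUFS1, the large iron-sulfur subunit of complex I, rose in E545K from 11.7 and 11.8 to 17.1 and 17.9 (0.54, SE 0.07, adjusted p 1.39e-05). In the same cells NDUFB4 fell from 108.7 and 112.8 to 77.7 and 78.4 (-0.50, SE 0.09) and COX8A from 335.8 and 378.6 to 257.1 and 248.7 (-0.49, SE 0.10). COX6B2 fell in all 3 lines, by -0.47 in wild type (adjusted p 0.00876), -0.66 in E545K (0.00127) and -0.65 in H1047R (0.00836). The wild-type call was lost without DMSO or medium replicate 1 (0.0593 and 0.111) and the H1047R call without DMSO or medium replicate 2 (0.0647 and 0.0621).

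The response to the medium differed from wild type in 23 genes in E545K (1 higher, 22 lower, where 47.1% of all genes were called, 37.1% lower and 10% higher) and in 15 in H1047R (1 higher, 14 lower, where 50.9% were called, 40.5% lower and 10.4% higher). Both tests share the wild-type libraries. Complex I held 13 and 11 of the lower calls. NDUFB3 differed by -0.78 in E545K (SE 0.13, adjusted p 0.000277) and NDUFV3 by -0.74 in H1047R (SE 0.10, adjusted p 4.62e-05). NDUFV3 went from 6.46 and 6.74 to 12.2 and 12.1 in wild type and from 10.9 and 12.2 to 12.4 and 11.6 in H1047R, so the libraries of the lines overlapped in the medium but not in DMSO. Centring turned the H1047R split to 15 higher and 1 lower and moved the E545K count to 6.

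Single libraries moved these counts too. The H1047R medium count of 11 was 3 without DMSO replicate 2, 2 without medium replicate 1 and 3 without medium replicate 2, and centring gave 6. The E545K count of 33 was 21 without medium replicate 2, and without DMSO replicate 1 its split was 12 higher and 21 lower; quantile normalization gave 20 and 23, and centring 8 and 24. Centring turned the wild-type split to 12 higher and 25 lower. The test of the response in E545K against wild type gave 13, 14 and 15 genes without E545K DMSO replicate 2, wild-type medium replicate 1 or E545K medium replicate 2, and that in H1047R gave 9 without wild-type medium replicate 1.

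**Figure D5:**
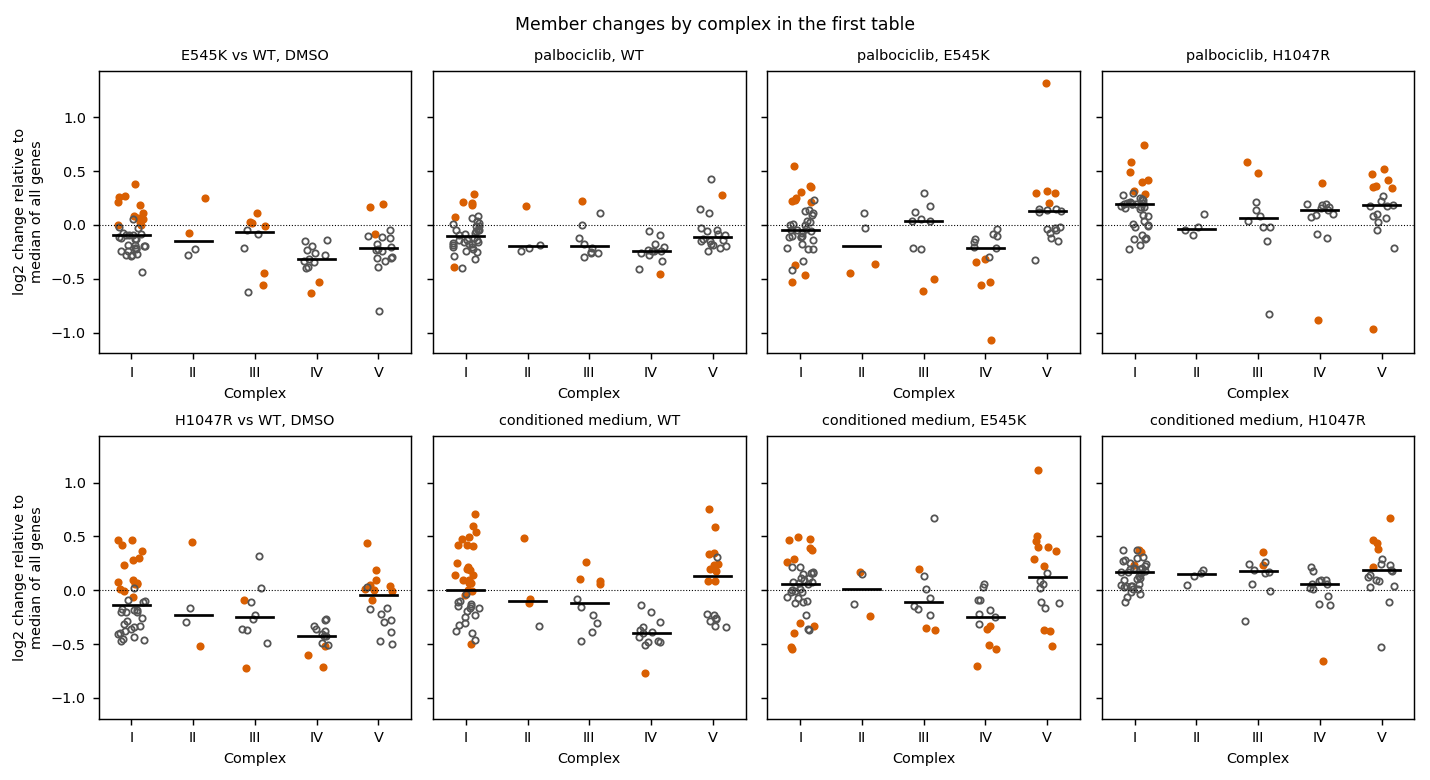
Relative log2 change of each subunit gene (points) by complex in 8 comparisons of the first table (panels), with the median per complex as a bar; filled points passed the limma test of the unshifted change and 0 is the median change of all genes. The bar of complex IV is the lowest of the 5 in every panel but palbociclib in H1047R, where that of complex II is lowest. It is at -0.32 and -0.43 in E545K and H1047R against wild type and at -0.40 in conditioned medium in wild type. In palbociclib it lies close to complex II in wild type (-0.24 and -0.20) and in E545K (-0.21 and -0.20).

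Other genes of the pathway were counted from lists chosen with earlier results known. In H1047R against E545K in palbociclib in the second table, 3 of 52 assembly factors were higher and 22 lower, 2 of 17 citrate cycle enzymes higher and 9 lower, 2 of 18 glycolysis genes higher and 13 lower, and 2 of 78 mitochondrial ribosomal proteins higher and 34 lower, where 21.5% of all genes were higher and 30.1% lower. Their median relative log2 changes were -0.14, -0.19, -0.30 and -0.12, against -0.42 for the subunits. Of 18 factors for transcription and the mitochondrial genome 3 were higher and 5 lower. Of those whose letters were searched for, GABPA (relative log2 change -0.48, limma adjusted p 0.000688) and YY1 (-0.13, adjusted p 0.0252) were lower. NRF1 (-0.03) and GABPB1 (0.20) were not called, and the part of these factors in the result was not tested. Cytosolic ribosomal proteins went the other way from the subunits, with 34 of 83 higher and 5 lower. With erlotinib in E545K, where 7.1% of all genes were higher and 9.11% lower, the subunits had a median of -0.27, assembly factors -0.12 (0 higher, 14 lower), citrate cycle enzymes -0.15, glycolysis genes -0.23 and mitochondrial ribosomal proteins -0.12 (1 higher, 18 lower), and cytosolic ribosomal proteins 0.26 (58 higher, 2 lower).

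The subunit transcripts are short: the median length was 712 bases over the 83 genes against 1801 over the genes tested in the second table. The 83 genes share libraries and are not independent. Over them Spearman's rho between log2 change and transcript length was 0.38 for H1047R against E545K in palbociclib in the second table. It was 0.40 for erlotinib in E545K, so in these comparisons the shorter subunit transcripts tended to be the lower ones. The other comparisons of that table gave 0.14 for H1047R against E545K with erlotinib and -0.09 for erlotinib in H1047R. For the erlotinib response in H1047R minus that in E545K it was -0.46. It was -0.26 for H1047R against E545K in the first table. These are descriptions, and the part of transcript length in the result was not tested.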

How the data were processed

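Poly(A) RNA of LoVo cells was sequenced in 26 libraries, 2 for each of 13 groups, and groups were taken from the sample labels. The deposited values are FPKM per gene, in 2 tables made by the authors. The submitters' processing notes name RSEM 1.3.1, Bowtie2 2.3.4.3 and HISAT2 2.1.0, and also DESeq2 1.4.5, with the build GRCh38 and no role for any of them. FPKM holds no read depth, so no interval for counting error can be given, and scaling between libraries or tables is not given in the sources used here.

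Genes that read FPKM 1 or higher in 2 or more of a table's libraries were tested on log2(FPKM + 1), which understates changes of low genes, with limma 3.58.1 in R 4.3.3 (1 coefficient per group, variance trend, each table apart). Tests were two-sided, and a Benjamini-Hochberg adjusted p below 0.05 over all genes tested was called. Interaction contrasts tested differences between responses. Of the 18 comparisons, H1047R against E545K in palbociclib in the first table and with erlotinib in the second were added after seeing the data. The fit was also run on simulated data with independent normal noise of its own estimated variances. Such data meet its assumptions, so that run could not test technical replicates, scaling or a library that stands apart. Alternatives were a pseudocount of 0.1, no filter, quantile normalization, centring each library on its median, a replicate block and leaving out each library. Named genes were the 3 called members with the largest and the 3 with the smallest relative change per comparison, subunit isoforms, the 5 most abundant members and the widest and narrowest in range per complex. Others were named by the report's order of roles after their values were seen. The members and lists were chosen with earlier results of these data known. The main fit did not pair libraries by replicate number. Promoters came from RefSeq on GRCh38.p14, and NDUFS5, NDUFB5, NDUFB9, NDUFC2, SDHC, CYC1, UQCRB, UQCRHL, COX6C, ATP5F1B, ATP5F1D, ATP5MC3, ATP5MF and ATP5MF-PTCD1 were among those with no promoter printed or searched. The single values of 1 member are not reported here. Python 3.11.15 with matplotlib 3.10.9 made the figures.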

Additional observations from a re-analysis of the deposited data

Results flagged for a closer look

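These results are listed because a test of the difference between the responses of 2 lines passed. For palbociclib, 4 of 83 subunit genes responded differently in E545K and in wild type, where 25.7% of all genes did, among them COX6B2 (-0.89), CYC1 (-0.46) and SDHA (-0.32). For H1047R against wild type the number was also 4, where 22.6% of all genes did, among them ATP5MF-PTCD1 (-1.55), COX6B2 (-0.81) and NDUFS1 (-0.37). Without H1047R palbociclib replicate 2 the differences of these genes were -1.19, -0.70 and -0.32. For conditioned medium, 23 genes differed in E545K from wild type, where 47.1% of all genes did, among them ATP5PD (0.42), ATP5MC1 (-1.37), NDUFC2-KCTD14 (-0.90) and NDUFB3 (-0.78). In H1047R 15 genes differed from wild type, where 50.9% of all genes did, among them UQCRH (0.38), ATP5MF-PTCD1 (-1.13), NDUFV3 (-0.74) and NDUFC2-KCTD14 (-0.72). For erlotinib, 6 genes differed between H1047R and E545K, where 2.17% of all genes did, among them NDUFC1 (0.62), COX7B (0.49) and NDUFB4 (0.47). All values are differences of log2 changes, first line minus second, from limma. ATP5MF-PTCD1 and NDUFC2-KCTD14 are readthrough transcripts whose fragments cannot be assigned with certainty.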

How the results depend on the processing

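The counts of called subunit genes for H1047R against E545K in the second table, 75 in palbociclib and 63 with erlotinib, stayed within 1.5 times under every alternative run (leave-one-out ranges 62 to 74 and 48 to 51). Of 120 single-gene results 50 lost their call under at least 1 alternative, and none changed sign. Centring on the median turned the balance of calls for E545K against wild type (21 called), H1047R against wild type (46), palbociclib in wild type (10) and E545K (21), conditioned medium in wild type (37) and E545K (32) and the H1047R minus wild type responses to palbociclib (5) and medium (16), and moved the counts for medium in H1047R (6), the E545K responses to palbociclib (1) and medium (6), erlotinib in H1047R (5) and its difference between lines (10). Quantile normalization turned palbociclib in H1047R (26) and medium in E545K (43), and moved palbociclib in E545K (40) and its response difference (7). No filter gave 6 for palbociclib in wild type, 5 for erlotinib in H1047R and 2 for the erlotinib difference. The share of all genes called in each alternative run, here and above, is not given, and the cause was not tested.

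Leaving out 1 library gave 13 to 23 calls for E545K and 19 to 25 for H1047R against wild type. Palbociclib gave 2 to 3 in wild type, 19 to 25 in E545K (balance turned at 25 without DMSO replicate 1) and 6 to 55 in H1047R (turned at 11 without palbociclib replicate 2). Medium gave 30 to 38 in wild type, 21 to 33 in E545K (turned at 33 without DMSO replicate 1) and 2 to 13 in H1047R. Response differences from wild type gave 1 to 4 and 0 to 41 for palbociclib (turned at 9 without H1047R DMSO replicate 1 and at 41 without palbociclib replicate 1) and 13 to 24 and 9 to 18 for medium, E545K first. H1047R against E545K in the first table gave 0 to 39 (turned at 1 without E545K replicate 1 and at 39 without H1047R replicate 1). Erlotinib gave 19 to 28 in E545K, 0 to 24 in H1047R and 0 to 38 for their difference. A lone library left in a group is assumed to vary like the other groups. These counts too stand without the share of all genes called in the same run.

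Replicate numbers showed no pairing common to all groups. Correlations of same-numbered deviations ran from -0.56 to 0.55 in the first table (median 0.07), with 15 of 36 pairs of groups over 0.1 and 6 under -0.1. In the second table they ran from -0.10 to 0.03. With the replicate block the erlotinib difference fell from 6 genes to 2. Block counts were 24 and 31 for the mutant lines against wild type, 10, 26 and 18 for palbociclib and 40, 34 and 11 for medium in wild type, E545K and H1047R. They were 4, 4, 23 and 15 for the response differences, 3 for the first-table contrast, 49 and 6 for erlotinib and 74 and 61 for the second-table contrasts.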
